A study of Mus musculus with 6 samples.

Results

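The troponin genes of the mouse heart were followed in desmin-null hearts with and without cardiac overexpression of TNF-α. The family has 8 genes, all of which were measured, by 12 of the 34945 probe sets that carry a single gene symbol: Tnni1, Tnni2 and Tnni3 for the inhibitory subunit, Tnnt1, Tnnt2 and Tnnt3 for the tropomyosin-binding subunit, and Tnnc1 and Tnnc2 for the calcium-binding subunit. The members were taken by gene symbol, and of several probe sets for a gene the one with the highest mean over the 6 arrays was taken as its main one. The family was chosen by its values in this same comparison, the difference between the groups on these 6 arrays, so those values are given here as a description and carry no test of their own. Whether a member passed the fit over all genes is stated as a fact of that fit.

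Hearts of mice 3 months old were hybridised to one-colour Affymetrix oligonucleotide arrays. A group of 3 arrays came from Des-/- mice of the 129SV strain, which lack the muscle intermediate filament protein desmin. Another group of 3 arrays came from TNFαDes-/- mice on a mixed 129SV/C57 background, which lack desmin and overexpress TNF-α in the heart. Strain and transgene cannot be told apart, both groups lack desmin, and the sources used here do not name the promoter that drives the transgene. RNA of 3 hearts per genotype was pooled before labelling per the labels, while the series text gives 3 mice per genotype, so whether arrays of a group carry separate animals is not known and the errors given here may be technical.

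Troponin is the calcium switch of striated muscle. It sits on tropomyosin along the actin filament, and when troponin C binds calcium, troponin I lets go of actin and myosin can attach. Each fibre type uses its own set: Tnni3 and Tnnt2 in heart, Tnni1 and Tnnt1 in slow skeletal fibres, Tnni2, Tnnt3 and Tnnc2 in fast skeletal fibres, while Tnnc1 serves both heart and slow fibres. The fetal heart uses the slow skeletal inhibitor Tnni1, which gives way to Tnni3 around birth, and the N-terminal extension that only Tnni3 carries is where protein kinase A acts on cardiac troponin.

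The deposited values are on the log2 scale, and the arrays did not share a distribution. The 99th percentile was 12.27 on Des-/- array 1, 11.75 and 11.69 on Des-/- arrays 2 and 3, and 12.26 to 12.31 on the TNFαDes-/- arrays, while array medians lay between 5.02 and 5.08. Among the 100 brightest genes, Des-/- array 1 stood above the mean of Des-/- arrays 2 and 3 by a median of 0.60. The values below are therefore also given with Des-/- array 1 removed and with all arrays quantile normalized, so that they share 1 distribution. The log2 ratio of 3' to 5' control probe sets also moved with the group, at -0.01 ± 0.03 in Des-/- and 0.32 ± 0.04 in TNFαDes-/- hearts for Gapdh (SD, n = 3). Its part in the results was not tested. The 9 listed ventricular cardiomyocyte markers were present, each above the array median on at least 1 array. In tissue RNA, fewer cells of a type and less RNA per cell cannot be told apart.

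Of the 8 troponin genes, 1 was called higher and 1 lower in TNFαDes-/- hearts by limma's fit over 18193 genes, which called 15.2% of all genes higher and 6.05% lower. Tnni1 was the member called higher and Tnnt3 the member called lower. In either direction 21.3% of all genes were called. The median log2 change of the 8 was 0.0047, against 0.04 over all genes. By size of change Tnni1 held place 12 among 18193 genes, or place 8 among the rises, while the other 7 lay between place 3450 and place 11478. With all 34945 probe sets fitted together, the same 2 genes were called, 1 higher and 1 lower of 12 troponin probe sets, where 17.3% of all probe sets were called, 11.7% higher and 5.62% lower.

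**Figure D1:**
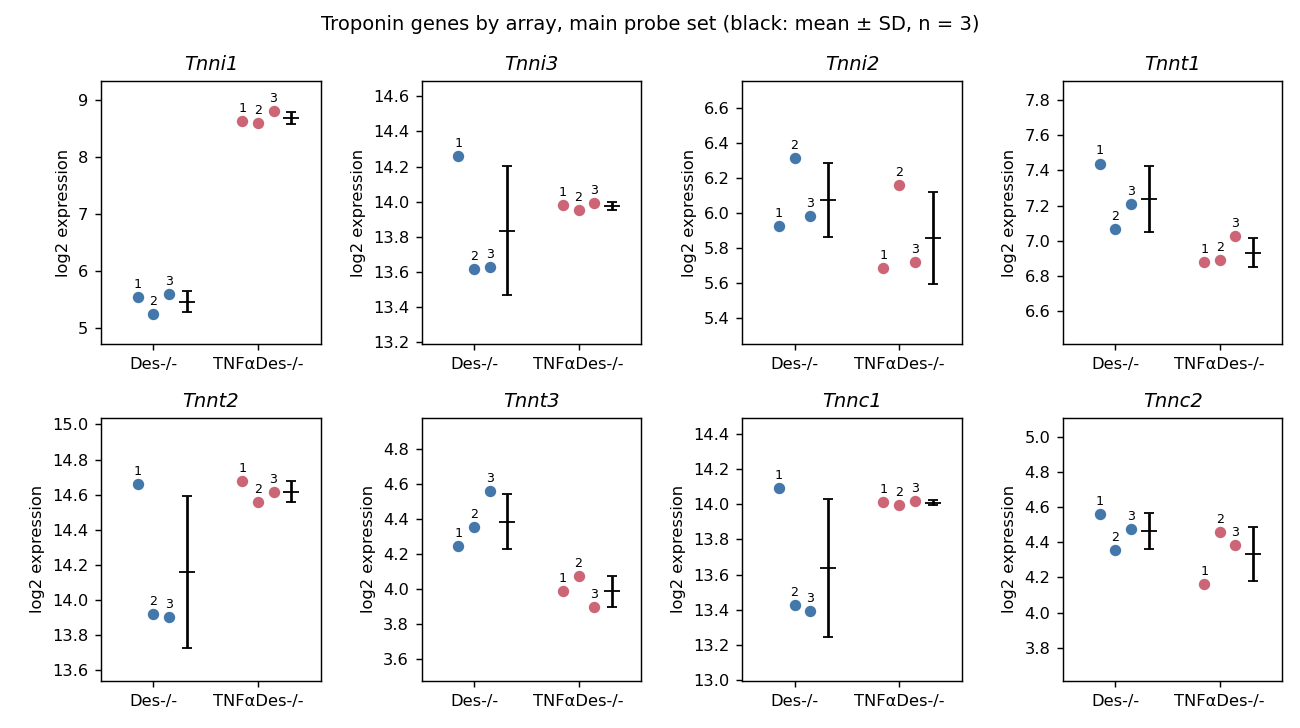
Log2 expression (y axis, deposited values, each panel on its own scale) of the main probe set of each troponin gene on the 3 Des-/- and 3 TNFαDes-/- arrays, numbered by replicate, with mean ± SD (n = 3) in black. Tnni1 moves from between 5.25 and 5.61 to between 8.60 and 8.79, while for Tnni3, Tnnt2 and Tnnc1 Des-/- array 1 stands well above Des-/- arrays 2 and 3.

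Among the inhibitory subunits, the slow skeletal and fetal isoform Tnni1 showed by far the largest change of the family. Its 1 probe set read 5.54, 5.25 and 5.61 on the Des-/- arrays and 8.63, 8.60 and 8.79 on the TNFαDes-/- arrays. Every TNFαDes-/- array lay far above every Des-/- array, and the 3 arrays within each group stayed close together. The group means were 5.47 ± 0.19 and 8.67 ± 0.11 (SD, n = 3), a log2 change of 3.21 ± 0.12 (SE) or 9.23-fold. Within the arrays Tnni1 moved from the 53.1st to 58.4th percentile of all probe sets in Des-/- hearts to the 88.3rd to 89.2nd in TNFαDes-/- hearts. The Des-/- level thus lay near the middle of the array, and since the table holds no detection calls, the fold is uncertain. The change was 3.25 without Des-/- array 1, 3.13 after quantile normalization and 3.10 to 3.28 with any 1 array left out. The probe set is of the kind shared by transcripts of a gene (_a_at), and no other probe set of Tnni1 was there to set beside it.

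The adult cardiac inhibitor Tnni3 showed no such change, and its direction depended on the scaling of the arrays. Its probe set read 14.26, 13.61 and 13.63 on the Des-/- arrays and 13.98, 13.95 and 13.99 on the TNFαDes-/- arrays. The TNFαDes-/- arrays were nearly alike and lay between Des-/- array 1 and the other two, so the groups overlapped. The log2 change was 0.14 ± 0.17 (SE, n = 3 per group), not past the test. Against Des-/- arrays 2 and 3 alone it was 0.35, which limma called higher, and against Des-/- array 1 alone it was -0.29. After quantile normalization Tnni3 stood at 14.06 ± 0.04 in Des-/- and 13.76 ± 0.03 in TNFαDes-/- hearts (SD, n = 3), a change of -0.30 that was called lower, with groups that did not overlap.

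The place of Tnni3 within each array does not depend on the scale. Counted from the brightest probe set, it held places 26, 26 and 24 on the Des-/- arrays and 44, 45 and 42 on the TNFαDes-/- arrays. Tnnt2 held places 11, 12 and 13 against 10, 12 and 12 on its brightest probe set, and Tnnc1 held places 33, 39 and 40 against 43, 42 and 39. Among the 3 cardiac genes the places of Tnni3 were the ones that did not overlap between the groups. Such separation is common on these arrays: deposited values did not overlap for 35.5% of all probe sets with a single symbol. The share was not counted for places, nor for the differences between genes that follow. The log2 difference Tnni3 minus Tnnt2 within an array was -0.40, -0.31 and -0.27 in Des-/- and -0.70, -0.61 and -0.62 in TNFαDes-/- hearts, and Tnni3 minus Tnnc1 was 0.17, 0.19 and 0.24 against -0.03, -0.04 and -0.03. Both differences were lower on every TNFαDes-/- array, so the change of Tnni3 was the smaller by 0.32 and 0.23, and this shows unequal change, not which gene moved. Tnnc1 minus Tnnt2 differed by -0.09 between the groups, which overlapped. All 3 lay within 1.09 of the highest value of their array.

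**Figure D2:**
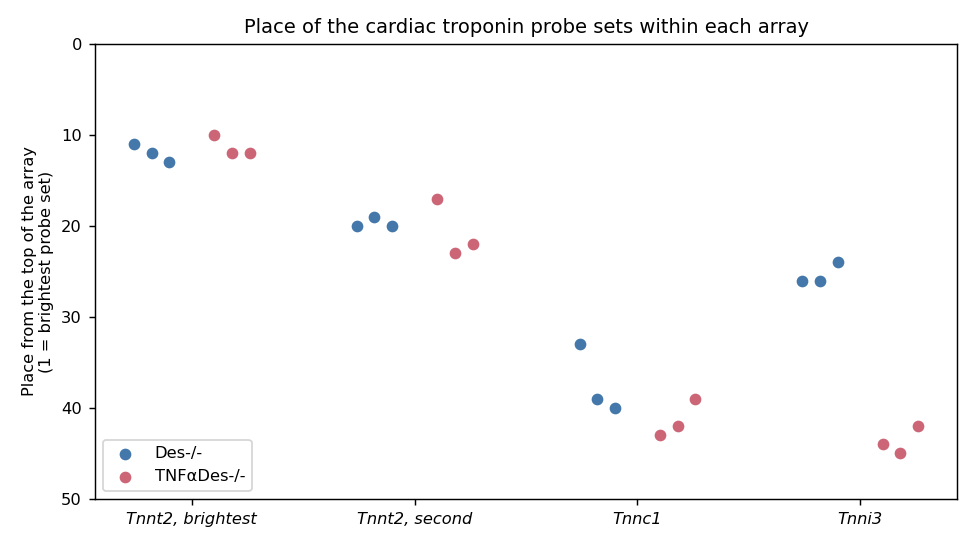
Place of the probe sets of Tnnt2, Tnnc1 and Tnni3 within each array (y axis, 1 is the brightest of all probe sets, controls left out), with 3 Des-/- arrays in blue and 3 TNFαDes-/- arrays in red. Tnni3 sits at places 24 to 26 in Des-/- and 42 to 45 in TNFαDes-/- hearts, while the groups overlap for the other probe sets.

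The promoters of Tnni1 and Tnni3 are shown as those of the fetal and the adult cardiac inhibitory isoform. Each window runs from 250 bases before to 50 bases after the annotated start, from RefSeq on build GRCm38.p6. Capitals mark matches on either strand to the E-box CANNTG and to GATAA, the core of GATA factor sites.
Tnni1, chr1:135799171-135799470, plus strand: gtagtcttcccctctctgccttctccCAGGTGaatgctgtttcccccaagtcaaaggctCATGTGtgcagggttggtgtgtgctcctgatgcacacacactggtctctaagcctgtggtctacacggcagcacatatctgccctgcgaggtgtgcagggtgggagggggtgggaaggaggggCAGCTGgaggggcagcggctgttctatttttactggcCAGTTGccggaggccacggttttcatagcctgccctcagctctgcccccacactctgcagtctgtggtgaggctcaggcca
Tnni3, chr7:4522479-4522778, minus strand: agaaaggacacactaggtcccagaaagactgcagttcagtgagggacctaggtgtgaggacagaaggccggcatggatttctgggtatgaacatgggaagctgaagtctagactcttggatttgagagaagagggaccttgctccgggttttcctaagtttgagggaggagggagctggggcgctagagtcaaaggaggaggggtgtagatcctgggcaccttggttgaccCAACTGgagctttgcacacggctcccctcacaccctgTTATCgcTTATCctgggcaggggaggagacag
The Tnni1 window held 4 E-box matches, starting at positions -224, -191, -68 and -31 from the start site, and the Tnni3 window held 1, at -19. Of all 32851 promoter windows, 72.3% held an E-box match. GATAA matched at 2 positions in Tnni3, 18 and 25 bases past the start site, and at none in this Tnni1 window, while 25.4% of the counted windows held it. The CACCC motif, which is not marked, matched at 2 positions in each, and in 57.5% of the counted windows. The MEF2 consensus (found in 3.19% of windows), the CArG box bound by SRF (1.63%) and the NF-κB consensus (8.46%) matched neither window, nor did CATTCC (14.7%), TATAAA (13.6%) or TGACNNNGC, the core of the antioxidant element (12.4%). These matches describe letters of the reference genome only. Tnni1 has a second annotated start with an overlapping window, and Tnni2 and Tnnt3 have no window in the table.

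The fast skeletal inhibitor Tnni2 was dim, and its 3 probe sets showed no separation of the groups. The brightest read 5.93, 6.32 and 5.98 on the Des-/- arrays against 5.69, 6.16 and 5.72 on the TNFαDes-/- arrays, and its log2 change of -0.22 ± 0.16 (SE, n = 3 per group) did not pass. The others read between 4.62 and 5.08 in Des-/- and between 4.43 and 4.96 in TNFαDes-/- hearts, with changes of -0.23 ± 0.12 and -0.04 ± 0.16. These levels lay around the array medians, and array 2 of each group was the highest of its group on the brightest probe set.

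Among the tropomyosin-binding subunits, the slow skeletal isoform Tnnt1 did not follow Tnni1. It read 7.44, 7.07 and 7.21 on the Des-/- arrays and 6.88, 6.89 and 7.03 on the TNFαDes-/- arrays. Each TNFαDes-/- array lay below each Des-/- array, the nearest being 7.07 and 7.03. The log2 change was -0.31 ± 0.12 (SE, n = 3 per group), which did not pass as deposited. After quantile normalization it was -0.40 and was called lower, from 7.29 ± 0.12 to 6.89 ± 0.06 (SD, n = 3), and cyclic loess gave the same -0.40 and call. The slow inhibitor and the slow tropomyosin-binding subunit thus had changes of opposite sign, as deposited and under each scaling tried.

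The cardiac isoform Tnnt2 was measured by 3 probe sets, and none was called. The brightest read 14.66, 13.92 and 13.90 on the Des-/- arrays and 14.68, 14.56 and 14.62 on the TNFαDes-/- arrays. Des-/- array 1 lay among the TNFαDes-/- arrays, and Des-/- arrays 2 and 3 lay below them. The change was 0.46 ± 0.19 (SE, n = 3 per group), with 0.37 ± 0.18 on the second probe set and 0.33 ± 0.27 on the dimmest, which read 9.60 to 10.63 in Des-/- and 10.01 to 10.72 in TNFαDes-/- hearts. Without Des-/- array 1 the brightest gave 0.71 and was called higher, while against Des-/- array 1 alone it gave -0.04, and quantile normalization left 0.02. The size of the Tnnt2 change therefore followed the choice of Des-/- arrays.

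The fast skeletal isoform Tnnt3 was the 1 member called lower, at the bottom of the measured range. It read 4.25, 4.35 and 4.56 on the Des-/- arrays and 3.99, 4.07 and 3.90 on the TNFαDes-/- arrays, and the groups did not overlap. The log2 change was -0.40 ± 0.11 (SE, n = 3 per group), and -0.37 after quantile normalization. On all 6 arrays the probe set lay below the array median, at the 22.3rd to 39.6th percentile, so it is not shown to be above background and no fold is given. The call was lost without Des-/- array 2, Des-/- array 3, TNFαDes-/- array 1 or TNFαDes-/- array 3, where the change was -0.42, -0.31, -0.40 and -0.35.

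Of the calcium-binding subunits, Tnnc1 of heart and slow fibres resembled Tnnt2, with Des-/- arrays 2 and 3 the lowest. It read 14.09, 13.43 and 13.39 on the Des-/- arrays and 14.01, 13.99 and 14.02 on the TNFαDes-/- arrays. Des-/- array 1 was the highest of all 6. The change of 0.37 ± 0.18 (SE, n = 3 per group) did not pass. It was 0.60 and called without Des-/- array 1, and -0.06 and not called after quantile normalization. The fast skeletal Tnnc2 lay below the median on all 6 arrays, at 4.36 to 4.56 in Des-/- and 4.16 to 4.46 in TNFαDes-/- hearts, with a change of -0.13 ± 0.11.

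The 3 cardiac genes were read against genes as bright as they are. The 100 genes with the highest mean had a median log2 change of 0.36 as deposited, with quartiles of 0.22 and 0.50, and limma called 18 of them higher. Of these 100, 66 changed less than Tnnt2, 53 less than Tnnc1 and 18 less than Tnni3. Tnnt2 and Tnnc1 therefore lay in the middle of the brightest genes and Tnni3 in their lower part. The same 100 genes had a median difference of -0.04 from Des-/- array 1 alone and of 0.54 from Des-/- arrays 2 and 3.

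**Figure D3:**
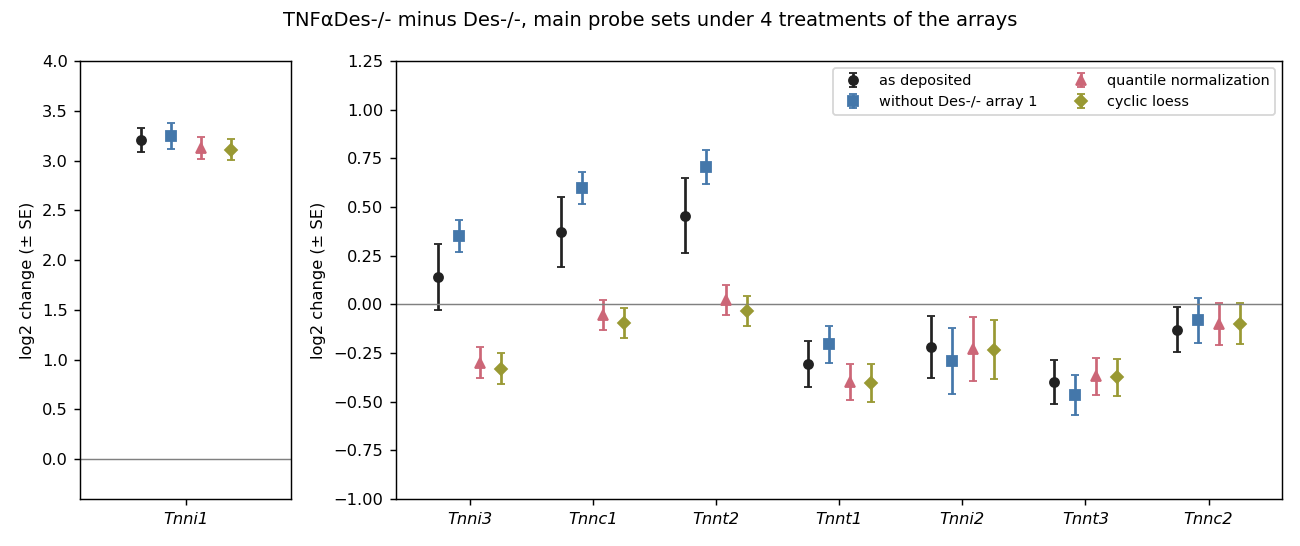
Log2 change, TNFαDes-/- minus Des-/- (y axis, ± SE from limma), of the main probe set of each troponin gene with values as deposited, without Des-/- array 1, after quantile normalization and after cyclic loess. Tnni1 (left, own scale) stays between 3.11 and 3.25, Tnni3 turns from 0.14 and 0.35 to -0.30 and -0.33, and Tnnt1, Tnni2, Tnnt3 and Tnnc2 lie below 0 in all of them.

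Leaving out Des-/- array 1 raised the calls among the 8 genes to 4 higher (Tnni1, Tnni3, Tnnt2 and Tnnc1) and 1 lower (Tnnt3), where 23.4% of all genes were called higher and 8.56% lower (32% in either direction). Quantile normalization gave 1 higher (Tnni1) and 3 lower (Tnni3, Tnnt1 and Tnnt3), where 12% of all genes were called higher and 10.4% lower (22.5% in all). Without regard to the test, groups did not overlap for 1 member in the upward and 2 in the downward direction, against 24.3% and 13.7% of all genes (38% together). Over the 12 probe sets it was also 1 upward and 2 downward, against 21.2% and 14.3% of all probe sets (35.5% together). Tnni1 was the 1 member called under both treatments of the arrays and with any 1 array left out.

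The I and T genes of troponin lie next to each other in the genome, in pairs that mostly join isoforms of different fibre types. On chromosome 1 the slow Tnni1 and the cardiac Tnnt2 are separated by 1 protein-coding gene, Lad1, in RefSeq's order. Lad1, which encodes the filament protein ladinin, read 7.53, 7.57 and 7.62 in Des-/- and 6.96, 6.96 and 7.13 in TNFαDes-/- hearts, and it fell by 0.56 on the log2 scale (SE 0.10, limma adjusted p = 0.00518). On the other side of Tnni1, Phlda3, a p53 target, rose by 0.66 ± 0.12 (adjusted p = 0.00554). Tnni1 thus rose between a gene that rose far less and a gene that fell. On chromosome 7 the cardiac Tnni3 and slow Tnnt1 are direct neighbours, and beyond Tnnt1 the phosphatase regulatory subunit Ppp1r12c rose by 0.58 ± 0.10 (adjusted p = 0.00529). The fast pair Tnni2 and Tnnt3, also on chromosome 7, flanks Lsp1, a leukocyte actin-binding protein that rose by 0.76 ± 0.10 (adjusted p = 0.00111). The other measured neighbours, Syt8, Syt5, Pkp1, Mrpl23, Nisch, Sema3g, Ube2c and Snx21, had changes between -0.15 and 0.30 and did not pass.

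Beside the troponins, 90 further genes of the sarcomere, of fibre types and of troponin's regulation were read from lists written from textbook knowledge. The lists were chosen with earlier results of these data known, so their share of calls is a description only. Of the 90 genes, 25 passed the test (27.8%, against 21.3% of all genes). The number was 52 without Des-/- array 1, 16 without TNFαDes-/- array 1 and 26 after quantile normalization. Over all 18193 genes the calls in the same order were 5814, 2075 and 4087, against 3869 as deposited.

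The partners of troponin on the thin filament moved both ways. Of 12 genes, 1 was higher and 3 lower (median log2 change 0.24; after quantile normalization 0 higher, 4 lower and a median of -0.0061; without Des-/- array 1, 7 higher and 3 lower). Tmod4, a tropomodulin of skeletal muscle that caps actin filaments, fell from 7.39 to 5.87, a change of -1.52 ± 0.16 (SE, limma adjusted p = 0.000549). The skeletal actin gene Acta1 changed by -1.35 ± 0.15 (adjusted p = 0.000611). Tpm2, a tropomyosin on which troponin sits, changed by -0.51 ± 0.10 (adjusted p = 0.00796; not past the test on its brightest probe set once _a_at, _s_at and _x_at kinds were left out), and the cardiac tropomodulin Tmod1 rose by 0.56 ± 0.10 (adjusted p = 0.00672), a call that ended after quantile normalization (0.18). The main cardiac tropomyosin Tpm1 (0.47 ± 0.19) and the cardiac actin Actc1 (0.50 ± 0.19) had changes like that of Tnnt2 and did not pass. The probe sets of Tpm1 disagreed in size, and one of them rose by 1.14 ± 0.18 (adjusted p = 0.00425 over all probe sets), a probe set named after its value was seen.

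On the thick filament, the slow myosin heavy chain Myh7 had a change of the size of that of Tnni1. It read 10.95, 10.79 and 10.72 in Des-/- and 14.47, 14.49 and 14.49 in TNFαDes-/- hearts, a change of 3.67 ± 0.10 (SE, limma adjusted p = 5.21e-07). Of 12 genes of the cardiac thick filament and M-band, 2 were higher and 0 lower (2 lower at an unadjusted p under 0.05; median 0.35). After quantile normalization 1 was higher and 4 lower, at a median of -0.12, and without Des-/- array 1, 9 were higher and 1 lower. The second of the 2 was the M-band gene Myom2 (0.47 ± 0.10, adjusted p = 0.0142), whose call ended after quantile normalization (0.11) and without Des-/- array 2, Des-/- array 3, TNFαDes-/- array 1 or TNFαDes-/- array 3. The adult heart's fast myosin heavy chain Myh6 was measured by 2 probe sets that disagreed, and it is named after their values were seen. The brighter read 14.84, 14.16 and 14.19 in Des-/- and 14.84, 14.75 and 14.79 in TNFαDes-/- hearts, and its change of 0.40 ± 0.18 did not pass. The second stood at 11.49 ± 0.67 in Des-/- and 8.78 ± 0.12 in TNFαDes-/- hearts (SD, n = 3), a change of -2.71 ± 0.29 (adjusted p = 0.000849 over all probe sets). With its probe sets averaged, Myh6 was called lower, at -1.16 (adjusted p = 0.00832), so the count of 0 lower rests on the choice of the brighter probe set. The regulatory light chain Myl2 (0.44 ± 0.19) and the essential light chain Myl3 (0.29 ± 0.19) did not pass.

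Among 10 genes of slow skeletal fibres, Myh7 was the 1 called higher and 0 were lower by limma (6 higher and 0 lower at an unadjusted p under 0.05). The median was 0.40 as deposited, 0.61 with 8 higher without Des-/- array 1, and -0.04 with 1 higher after quantile normalization. The slow tropomyosin Tpm3 on its brightest probe set (0.51 ± 0.16), the calcium pump Atp2a2 (0.50 ± 0.19) and the calsequestrin Casq2 (0.56 ± 0.18) did not pass. The dimmer Tpm3 probe sets, given with their values seen, disagreed. Changes of 0.51 ± 0.14 and 0.41 ± 0.11 were called higher by limma (adjusted p = 0.0372 and 0.0365 over all probe sets). Changes of 0.01 ± 0.10 and -0.17 ± 0.11 did not pass. The slow skeletal myosin-binding protein Mybpc1 lay below the median of every array (4.39 to 4.75), with a change of -0.22 ± 0.10.

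Genes of fast skeletal fibres were lower where they moved. Of 11 measured, 3 were lower and 0 higher by limma (4 lower and 0 higher at an unadjusted p under 0.05), with a median of -0.16 (-0.13 and 4 lower after quantile normalization). The fast calsequestrin Casq1 read 8.34, 8.15 and 8.12 in Des-/- and 6.71, 6.46 and 6.71 in TNFαDes-/- hearts, a change of -1.58 ± 0.11 (SE, adjusted p = 8.72e-05). The light chain Myl1 changed by -1.01 ± 0.19 (adjusted p = 0.00658). The fast calcium pump Atp2a1 changed by -0.39 ± 0.12 (adjusted p = 0.0461), a call lost without Des-/- array 2, Des-/- array 3, TNFαDes-/- array 1 or TNFαDes-/- array 3 (adjusted p up to 0.302 over all alternatives). Levels within the list were mixed. The fast fibre genes Myh1 and Myh4 lay below the median of every array, and Pvalb (4.94 to 5.23) and Mylpf (4.68 to 5.31) lay around it. Other listed genes lay above it on every array, among them Myl1 (9.63 to 11.15), Mybpc2 (7.55 to 8.12), Myoz1 (5.94 to 6.43), Atp2a1 (5.55 to 6.25) and Casq1. The low levels of Tnni2, Tnnt3 and Tnnc2 thus resembled those of some fast fibre genes and not of others. The summed linear signal of the 9 skeletal fibre markers was 9.54 to 9.69 on the log2 scale in Des-/- and 8.97 to 9.03 in TNFαDes-/- hearts. Casq1 alone went from between 8.12 and 8.34 to between 6.46 and 6.71, and without it the sum of the other 8 was 8.86 to 8.97 against 8.64 to 8.71. Of these 8, Atp2a1 was called lower, as given above. Actn3 (-0.29 ± 0.20) and Mybpc2 (-0.29 ± 0.12) did not pass. Myh1, Myh2, Myh4, Mylpf and Pvalb had changes between -0.16 and 0.05 and did not pass either. The part of the skeletal fibre markers in the Tnnt3 result was not tested. Of 10 myogenic and embryonic skeletal genes, among them Myod1, Myog and Myh3, limma called 0 (0 also at an unadjusted p under 0.05), and 9 lay below the median of every array.

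**Figure D4:**
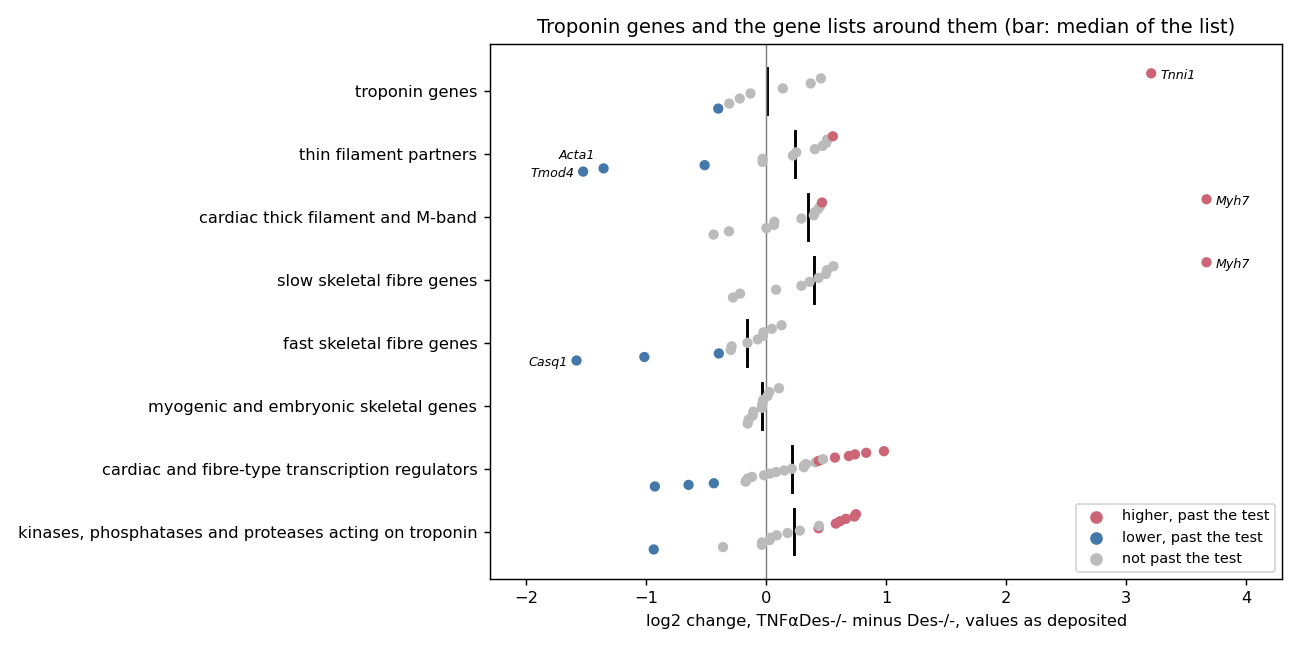
Log2 change, TNFαDes-/- minus Des-/- (x axis, values as deposited), of the 8 troponin genes and of each gene of 7 lists, with genes past the test in red (higher) or blue (lower), the others in grey and the median of each list as a bar. Tnni1 and Myh7 stand apart at 3.21 and 3.67, and Myh7 appears in 2 lists. The medians of 5 lists lie above 0, between 0.21 and 0.40, and all 5 turn negative after quantile normalization.

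Listed regulators of cardiac and fibre-type transcription, not all of them transcription factors, moved both ways. Of 23 measured, 6 were higher and 3 lower (median 0.21), with 12 higher and 3 lower without Des-/- array 1, and 5 higher and 3 lower after quantile normalization (median -0.02). The serum response factor Srf, which drives contractile genes through CArG boxes, stood at 8.06 ± 0.10 in Des-/- and 9.04 ± 0.04 in TNFαDes-/- hearts (SD, n = 3), a rise of 0.98 ± 0.10 (SE, limma adjusted p = 0.000389). Rcan1, a calcineurin inhibitor that is itself a target of NFAT signalling, rose by 0.83 ± 0.09 (adjusted p = 0.000572) and the cardiac T-box factor Tbx20 by 0.74 ± 0.14 (adjusted p = 0.00693). Mef2c, a MADS-box factor of muscle genes, changed by -0.65 ± 0.12 (adjusted p = 0.00658; 0.0532 as the mean of its probe sets). Prox1 changed by -0.93 ± 0.27 (adjusted p = 0.0423) and Nfatc4 by -0.44 ± 0.12 (adjusted p = 0.0305), and both calls were lost with some arrays left out, Prox1 without Des-/- array 3 or any TNFαDes-/- array and Nfatc4 without Des-/- array 2, Des-/- array 3, TNFαDes-/- array 1 or TNFαDes-/- array 2. The 3 lower genes became 1 without Des-/- array 3, TNFαDes-/- array 1 or TNFαDes-/- array 2. The Nfatc4 call was also lost when its probe sets were averaged. Sox6, a repressor of slow fibre genes, stood at -0.17 ± 0.13 and did not pass.

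Of 16 genes whose products modify troponin, 6 were higher and 1 lower (median 0.23), with 9 higher and 1 lower without Des-/- array 1, and 3 higher and 2 lower after quantile normalization (median -0.04). The 6 higher became 2 without TNFαDes-/- array 1 and 3 without Des-/- array 2, Des-/- array 3 or TNFαDes-/- array 3, with 4 when TNFαDes-/- array 2 was removed. Prkca, the protein kinase C isoform that phosphorylates cardiac troponin I and T, rose by 0.75 ± 0.12 (SE, limma adjusted p = 0.00292). The ubiquitin ligase Trim63, which targets cardiac troponin I, rose by 0.74 ± 0.18 (adjusted p = 0.0232), a call lost without Des-/- array 2, Des-/- array 3, TNFαDes-/- array 1 or TNFαDes-/- array 3. The p21-activated kinase Pak3 rose by 0.66 ± 0.13 (adjusted p = 0.00762). Prkd1, protein kinase D, was the 1 lower gene, from 7.17, 6.67 and 6.74 to 6.19, 5.61 and 5.97 (-0.94 ± 0.18, adjusted p = 0.00762). The catalytic subunits of protein kinase A, Prkaca (0.28 ± 0.14) and Prkacb (0.04 ± 0.13), did not pass. Tnni3k, a cardiac kinase that binds troponin I, stood at -0.36 ± 0.13 on its brighter probe set and did not pass, and its second probe set gave -0.80 ± 0.10 (adjusted p = 0.00186 over all probe sets), a gene named after its values were seen.

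The genes whose profile over the 6 arrays was most like that of Tnni1 were Chac1, Mlana, Eif1a, Tmem144 and Srxn1, with Pearson's r between 0.9983 and 0.9998 among 1786 genes that ranged over at least 1 on the log2 scale. For Tnnt3, the member with the largest fall, they were Phf24, Pnmt, Kalrn, Aplp1 and Cnpy2, with r between 0.981 and 0.992. With 2 groups of 3 arrays, these correlations rest mostly on the difference between the groups and are given as a description.

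Some markers of other cells were called as well, where limma called 15.2% of all genes higher and 6.05% lower. Of 6 fibroblast markers 2 were higher, of 5 endothelial markers 3 were lower, of 5 smooth muscle markers 1 was higher and 2 lower, and of 5 macrophage markers 2 were higher and 1 lower. Of 3 adipocyte markers 2 were lower, of 3 erythroid markers 1 was lower, and of 5 atrial markers Nppa was the 1 higher. Several of these counts changed when 1 array was left out, as did the calls over all genes, from 3869 to between 2068 and 5814. The 2 higher macrophage markers became 0 by limma without Des-/- array 2, Des-/- array 3, TNFαDes-/- array 1 or TNFαDes-/- array 3, against 3 at an unadjusted p under 0.05 with all arrays. The 2 lower smooth muscle markers became 0 without TNFαDes-/- array 3 and 1 without Des-/- array 2, Des-/- array 3, TNFαDes-/- array 1 or TNFαDes-/- array 2. The 3 lower endothelial markers became 1 without TNFαDes-/- array 1, and the 2 higher fibroblast markers became 4, and the 1 higher atrial marker 2, without Des-/- array 1. The summed linear signal of the 9 ventricular markers was 16.70 to 17.39 on the log2 scale in Des-/- and 17.29 to 17.32 in TNFαDes-/- hearts, and that of the 5 atrial markers 15.03 to 15.64 and 15.64 to 15.67. Limma called none of the 9 ventricular markers as deposited (2 higher at an unadjusted p under 0.05), 7 higher without Des-/- array 1 and 1 lower after quantile normalization. Over all genes it called 23.4% higher and 8.56% lower without Des-/- array 1, and 12% higher and 10.4% lower after quantile normalization. Quantile normalization also gave 3 atrial markers lower beside 1 higher, and 2 fibroblast markers lower beside 1 higher. The atrial light chains Myl7 (-0.44 ± 0.16) and Myl4 (0.07 ± 0.19) did not pass. The part of these shifts in the troponin values was not tested.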

How the data were processed

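The authors deposited log2 expression values of 45101 probe sets on 6 arrays, made with RMA (version not given) per the submitters' processing notes. Names came from the platform annotation: 34945 probe sets had 1 symbol and were used, while 932 with several, 9160 without one and 64 controls were not. Where a gene had several probe sets, the one brightest on average stood for it, which left 18193 genes. The fit used limma (version 3.58.1, R version 4.3.3) with lmFit, eBayes and Benjamini-Hochberg adjustment over everything fitted, and 0.05 as the threshold. Every change is TNFαDes-/- minus Des-/-. The text names all members, up to 3 of the largest rises and falls past the test in each list, the nearest measured neighbours and the 5 most alike profiles. Other names were picked with their values in view. The members and lists were chosen with earlier results of these data known. Simulated arrays of these groups and 18193 genes were tested with 50 genes per size of change. Of these, 30% were found at a log2 size of 0.5, then 84% (size 1), 98% (size 2) and 100% (size 3), beside 12 false calls. The simulated noise was independent between genes and held none of the differences in distribution between the real arrays. The rates therefore need not hold for the real arrays. The 18 alternatives changed fit options, probe set choice, scaling or the arrays used. Pak1, Plin1 and Hbb-b1 were listed and not analysed here. The number of arrays limits the precision.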

Additional observations from a re-analysis of the deposited data

How the results depend on the processing

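Replicate numbers did not pair the arrays: deviations of same-numbered arrays correlated at 0.25, 0.31 and -0.30, and Des-/- arrays 1 and 3 correlated better with another number (0.32 and 0.38). With the number as a replicate block, 4278 genes were called, among them 2 troponin and 32 partner genes, and 1 troponin probe set. Of the 8 troponin genes, 2 were called as deposited, 6 with array weights, 4 with quantile normalization (also without Des-/- array 1) or cyclic loess, 1 with the filter on dim probe sets (6 tested), 1 without Des-/- arrays 2 and 3, 0 of 5 by limma with _a_at, _s_at and _x_at probe sets left out (0 also at an unadjusted p under 0.05), and 1 to 5 with any 1 array left out. Of the 12 probe sets, 2 were called as deposited, 4 with quantile normalization or cyclic loess, 1 with median centring, and 1 to 6 with any 1 array left out. Tnni1 was called in the 17 alternatives that tested it. Tnni3 turned to -0.30 (quantile normalization, with or without Des-/- array 1), -0.33 (cyclic loess) and -0.29 (without Des-/- arrays 2 and 3). In the same order Tnnc1 turned to -0.056 and -0.029, -0.095 and -0.085, and Tnnt2 turned to -0.034 (cyclic loess) and -0.043 (without Des-/- arrays 2 and 3). Over all genes, 3869 were called as deposited, 8414 with array weights, 1587 without Des-/- arrays 2 and 3, and 2068 to 5814 with any 1 array left out. Of the 90 partner genes, 25 were called as deposited, 53 with array weights, 12 without Des-/- arrays 2 and 3, and 16 to 52 with any 1 array left out. Quantile normalization moved the split of all calls from 2768 higher and 1101 lower to 2190 and 1897. The cause was not tested.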
